A study of Homo sapiens with 3 samples.

Results

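The proteins of the large subunit of the cytosolic ribosome were followed here at the RNA level. They were chosen by name, as the RefSeq transcripts of the RPL and RPLP genes, and not by any measured value. That gave 50 transcripts of 46 genes, out of 25443 transcripts listed in at least 1 sample, and all 50 were listed in all 3 samples. Isoforms of 1 gene share reads, so each gene was counted once, by its isoform with the highest mean level.

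In order to follow BDE-209, decabromodiphenyl ether, a brominated flame retardant, the study sequenced polyA RNA from HEK293T, human embryonic kidney cells with the large T antigen of SV40 (named without the T in the sample labels). The DMSO sample had 1 mM of that solvent in its medium, the BDE-209 sample the same solvent and 1 µM of the compound, and the control neither, each for 48 h. Each condition was 1 sample of 1 cell line, so no difference below has a replicate check, and no p-value is given. The values are RPKM, read counts divided by transcript length and library size, so that levels can be compared between genes.

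The ribosome is built of a small subunit, which reads the mRNA, and a large subunit, which joins the amino acids and releases the growing chain through an exit tunnel. Large subunit proteins are made in the cytoplasm, assembled on ribosomal RNA in the nucleolus with the help of many assembly factors, and are needed in nearly equal numbers. In vertebrates their mRNAs typically start with a C followed by a run of pyrimidines, the 5′ terminal oligopyrimidine (5′ TOP) tract, through which their translation is regulated together.

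Runs of pyrimidines near the start sites can be read from the sequence. They were sought anywhere in a window and could begin before or after the annotated start. A C at the start was not asked for, so the runs are not counts of 5′ TOP tracts. RefSeq promoters (GRCh38.p14) were matched for 38 of the 46 genes, and the windows below run from 10 bases before the annotated start through the first 20 transcribed bases. They are shown for genes whose levels are described further on, with the longest run of C and T in capitals.
RPL41: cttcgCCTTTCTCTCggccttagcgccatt
RPL26: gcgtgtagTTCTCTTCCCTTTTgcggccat
RPL4: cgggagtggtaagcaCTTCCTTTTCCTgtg
RPL7A: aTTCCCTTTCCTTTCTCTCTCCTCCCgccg
RPLP0: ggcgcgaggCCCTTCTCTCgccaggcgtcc
RPLP1: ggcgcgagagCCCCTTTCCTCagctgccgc
RPLP2: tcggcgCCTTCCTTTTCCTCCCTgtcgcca
RPL19: agCTCTTTCCTTTCgctgctgcggccgcag
RPL36: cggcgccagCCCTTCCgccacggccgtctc
RPL3: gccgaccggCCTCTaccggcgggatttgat
These windows lie at chr12:56116623-56116652 (RPL41, plus strand), chr17:8383174-8383203 (RPL26, minus strand), chr15:66504836-66504865 (RPL4, minus strand), chr9:133348208-133348237 (RPL7A, plus strand) and chr12:120201092-120201121 (RPLP0, minus strand). The others lie at chr15:69452808-69452837 (RPLP1, plus strand), chr11:809957-809986 (RPLP2, plus strand), chr17:39200313-39200342 (RPL19, plus strand), chr19:5690285-5690314 (RPL36, plus strand) and chr22:39319604-39319633 (RPL3, minus strand).

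A pyrimidine run of 6 bases or more was present in this window in 36 of the 38 genes (94.7%), against 35% of 27267 other genes with a promoter, where a gene with several starts counted if any of them held it. The longest run was 12 bases at the median and reached 25 bases in RPL7A, against a median of 5 in the other genes. RPL3 and RPL6 had no run longer than 5 bases at the start RefSeq gives. The letters CTTTCC on the transcribed strand of the window, which lie within such runs, occurred in 31.6% of the 38 genes and 1.87% of the others. Over the whole 300 bases of the promoter table, on both strands, CTTTCC occurred in 50% against 30.2%, ACTTCCGG in 13.2% against 4.94%, AAGATGG in 13.2% against 7.1%, and the TATA sequence TATAAA in 7.89% against 14%. These are matches of letters and not shown to be sites.

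Large subunit genes took up 9.16% of all summed RPKM in control, 9.32% in DMSO and 9.20% in BDE-209. As a share of reads this was 3.86% (Wilson 95% interval 3.85 to 3.88) in control, 3.91% (3.90 to 3.93) in DMSO and 3.83% (3.81 to 3.85) in BDE-209. Reads were not in the files and were recovered from the steps of the RPKM values, as lower bounds, for totals of 4843624, 4782044 and 4676794 reads. All intervals given here cover counting error only, and so compare libraries rather than conditions. In such bulk RNA, fewer cells of a type and less RNA per cell cannot be told apart. Of 4 genes taken as markers of the line, 3 were listed, with NEFM at 49.9 to 54.1 RPKM, NEFL at 24.4 to 27.9 RPKM, CD24 at 2.24 to 3.34 RPKM, and PAX2 absent. Of 4 markers of other cell types, PTPRC of leukocytes and HBB of erythroid cells were absent, ALB of hepatocytes stood at 0.0912 to 0.0944 RPKM, and COL1A1 of fibroblasts at 4.44 to 5.19 RPKM.

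The median level of the 46 genes was 1116 RPKM in control, 1116 RPKM in DMSO and 1113 RPKM in BDE-209, above 99.7% of the transcripts listed in each sample. Levels lay within 2-fold of that median for 36 genes in control and for 37 in each of the other samples. RPL41 (NM_021104, chr12:56510374-56511751 on hg19, plus strand), the shortest protein of the ribosome, was the highest, at 2658 RPKM in control, 2723 RPKM in DMSO and 2646 RPKM in BDE-209. RPL26 (NM_000987, chr17:8280834-8286531 on hg19, minus strand), which sits at the rim of the exit tunnel and binds the mRNA of p53, followed with 2342, 2209 and 2132 RPKM in the same order. RPL4, which lines the tunnel, had 1974, 2041 and 2035 RPKM. RPL5, which carries the 5S ribosomal RNA into the subunit, had 1946, 2002 and 1954 RPKM. RPL8, near the peptidyl transferase centre, had 1956, 1985 and 1895 RPKM, and RPLP1, an acidic protein of the stalk, 1873, 1971 and 1978 RPKM. Next was RPL7A, with 1873, 1909 and 1886 RPKM. Of the 6 highest genes, RPL41 and RPL26 stood above the other 4 in each sample. The differences between RPL4, RPL5, RPL8 and RPLP1 within a sample were of the size of their differences between samples.

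**Figure D1:**
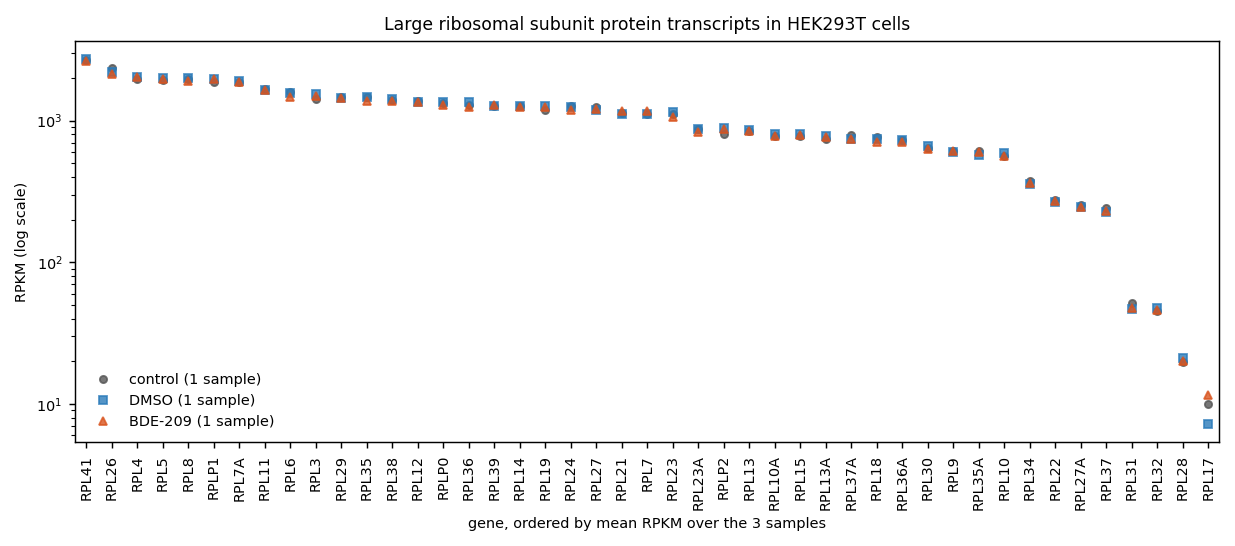
RPKM (log axis) of 45 of the large subunit genes in the control, DMSO and BDE-209 samples, 1 sample each, with genes ordered by their mean. The 3 symbols nearly coincide for most genes, levels run from RPL41 at 2658 RPKM in control down to RPL17 at 10.1 RPKM, and the last 4 genes stand apart below 52 RPKM.

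The order of the genes was nearly the same in the 3 samples: Spearman's rho of the 46 levels was 0.996 between BDE-209 and DMSO, 0.995 between DMSO and control and 0.995 between BDE-209 and control. It is a description across genes, which share each sample's library and are no replicates. At the median a gene's highest sample lay 5.02% above its lowest, and for 43 of 46 genes the difference was under 1.1-fold. The exceptions were RPL17 at 1.59-fold and RPLP2 and RPL31 at 1.105-fold each.

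RPKM values of single genes were less even than the protein numbers in a subunit. Among the 42 genes with 1 or 2 coding transcripts in the files, the SD of the log2 level was 0.83 in control, 0.84 in DMSO and 0.83 in BDE-209, and the highest gene stood 11.0-fold, 12.0-fold and 11.5-fold above the lowest. RPL37, a small zinc-binding protein, was the lowest of them at 241, 227 and 231 RPKM in control, DMSO and BDE-209. RPL27A had 253, 245 and 245 RPKM, and RPL22, which also binds viral RNA, had 277, 268 and 269 RPKM. All 3 stood well above the 4 genes described next. RPKM divides reads by transcript length, and the lengths recovered with the reads were 1586 bases for RPL37, 2453 for RPL27A and 2099 for RPL22. RPL37 had 1855 recovered reads in control. RPL38 had 1858 on a recovered length of 274 bases, for 1400 RPKM. Recovered lengths are the smallest that fit the RPKM values, so lengths and reads are both lower bounds. For RPL38 a longer length with more reads fits as well, so its reads cannot be called equal to those of RPL37. The part of transcript length in the uneven values was not tested.

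The 4 lowest genes were those with 3 or more coding transcripts in the files. RPL31 had 51.6 RPKM in control, 46.7 RPKM in DMSO and 47.7 RPKM in BDE-209. RPL32 had 45.1, 47.5 and 46.02 RPKM, RPL28 had 19.8, 21.0 and 20.1 RPKM, and RPL17, which lines the tunnel, 10.1, 7.22 and 11.5 RPKM. No other large subunit gene had 3 or more. Over all coding genes the highest transcript had a median of 6.82 RPKM for 10228 genes with 1 listed transcript, 6.755 RPKM for 3569 genes with 2, and 0.979 RPKM for 1404 genes with 3 or more. A mean of at least 100 RPKM was reached by 4.35%, 4.29% and 0.427% of these genes. Large subunit genes with 1 transcript had a median of 887.9 RPKM (29 genes) and those with 2 a median of 1398 RPKM (13 genes). How the authors counted reads shared by isoforms is not given in the sources used here, and its part in the low values was not tested.

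**Figure D2:**
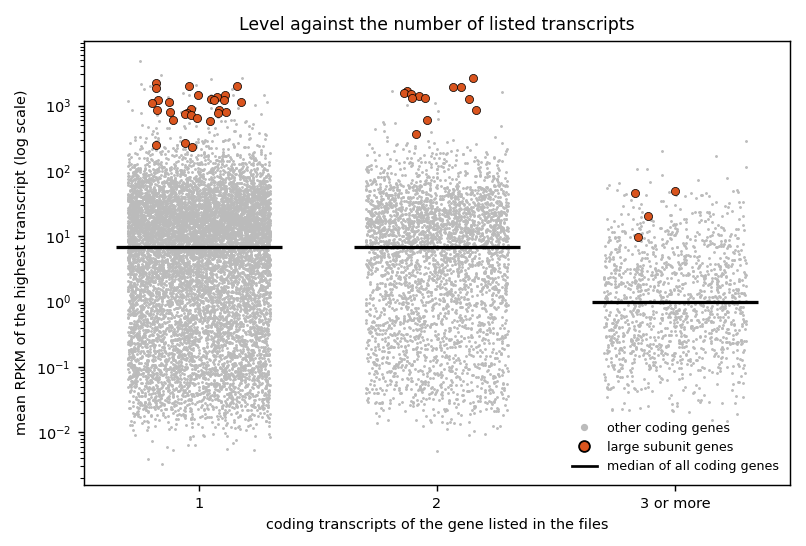
Mean RPKM of each gene's highest coding transcript (log axis) by the number of its coding transcripts in the files; grey points are other genes, orange points the 46 large subunit genes, and bars the medians of all coding genes. The 4 large subunit genes with 3 or more transcripts lie between 9.59 and 48.7 RPKM, below all the others.

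For 4 genes with 2 isoforms, both listed isoforms gave a similar picture, least so for RPLP1. The lower isoform of RPL3 stood at 0.984 of the higher in control, 0.987 in DMSO and 0.985 in BDE-209. For RPL36 the share was 0.731, 0.740 and 0.727, for RPL41 0.696, 0.701 and 0.698, and for RPLP1 0.784, 0.784 and 0.810. Both members of a pair share most of their bases and reads, so they are no independent measurements.

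Large subunit genes have many processed copies in the genome. RefSeq lists 5 to 137 pseudogenes per gene, with a median of 19.5 and the most for RPL21. Across the 46 genes the number of pseudogenes and the level had a Spearman's rho of -0.21, and of -0.16 over the 42 genes, a description only. A few copies were listed at high levels. RPL13AP5 had 714, 782 and 719 RPKM in control, DMSO and BDE-209, beside 740, 779 and 770 RPKM for RPL13A. RPL21P28 had 791, 766 and 818 RPKM beside 1128, 1117 and 1164 RPKM for RPL21, and RPL23P8 had 264, 270 and 253 RPKM beside 1109, 1149 and 1062 RPKM for RPL23. The authors kept only uniquely mapped reads, so reads that fit a parent and its copy equally well should have been dropped. Levels of these 3 parents, and of other genes with near-identical copies, are therefore uncertain.

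Comparing BDE-209 with DMSO addresses the compound itself, since both samples held the solvent. Most large subunit genes lay slightly lower with BDE-209: 31 of 46 were lower and 15 higher, with a median log2 ratio of -0.03 (computed on RPKM + 0.5, as are all log2 ratios of single genes and lists below). Over all 15573 transcripts with a mean of at least 1 RPKM the median was 0.00, and 50.1% were higher. Over the 718 other coding transcripts of at least 100 RPKM it was -0.01, and 41.9% of all 795 transcripts at that level were higher. Here and below, other transcripts are all outside the 50 chosen, and they still include further isoforms of some of the 46 genes, such as RPL8 and RPL11. Summed reads of the large subunit genes differed by a log2 ratio of -0.03 (-0.04 to -0.02), and their summed RPKM by -2.16%. When the sum of all other transcripts was set equal, the median moved to -0.02.

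A log2 difference of at least 0.32 either way, a ratio of 5 to 4, was taken as a limit. Between BDE-209 and DMSO it was reached by 1 of the 46 genes, RPL17, and by 14.1% of all 15573 transcripts, 6.93% higher and 7.19% lower, and 0.377% of those of at least 100 RPKM. RPL17 (NM_000985, chr18:47014823-47018878 on hg19, minus strand) rested on 48 reads in control, 34 in DMSO and 53 in BDE-209, for a log2 ratio of 0.64 (0.02 to 1.34). None of the 46 reached 2-fold, which 1.1% of all transcripts did. The study asked for 2-fold together with a limit on a NOISeq value, which was not applied here, so this share is not its share of genes called. Without the 4 genes of 3 or more transcripts, no gene reached 0.32.

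Counting intervals excluded equality for 13 of the 46 genes between BDE-209 and DMSO, with 2 higher and 11 lower. Among the 795 transcripts of at least 100 RPKM, which include the large subunit genes at that level, the shares were 4.91% higher and 10.2% lower. Over all transcripts they were 2.87% and 3.15%. Of the 718 other coding transcripts of at least 100 RPKM, 31 were higher and 62 lower. Counting alone gives an SD of log2 ratios of 0.04 for the 42 genes with 1 or 2 transcripts and 0.06 for these 718. Intervals of the former are thus mostly narrower, and the shares are not like for like. Taking the split of uniquely mapped reads as depth made it 0 higher and 23 lower, so the number follows the scaling. The intervals were taken under 3 scalings: the recovered totals, the split of uniquely mapped reads, and median-of-ratios size factors. Setting the sum of all other transcripts equal was not among them. Lower under each of the 3 were 9 genes, among them RPL3, RPL6, RPL8, RPL10, RPL23, RPL35, RPL36 and RPLP0. None was higher under all 3. Shares of all transcripts under the split of uniquely mapped reads or under all 3 are not given, so these counts have no background beside them.

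RPL36 (NM_033643, chr19:5674958-5691886 on hg19, plus strand) had the lowest log2 ratio of the 46 between BDE-209 and DMSO. It stood at 1288 RPKM in control, 1359 RPKM in DMSO and 1254 RPKM in BDE-209, for -0.12 (-0.19 to -0.04). The DMSO sample was thus the high one, and the BDE-209 sample lay closer to control. RPL23, a protein that binds MDM2 when free of the ribosome, had 1109, 1149 and 1062 RPKM, for -0.11 (-0.19 to -0.04). RPL6 had 1583, 1555 and 1473 RPKM, for -0.08 (-0.13 to -0.03), with BDE-209 below both others. Highest after RPL17 were RPL35A with 608, 570 and 603 RPKM, for 0.08 (-0.03 to 0.19), and RPL7 with 1123, 1116 and 1164 RPKM, for 0.06 (0.00 to 0.12). The first of these intervals includes 0, and both differences are smaller than that of RPL36.

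**Figure D3:**
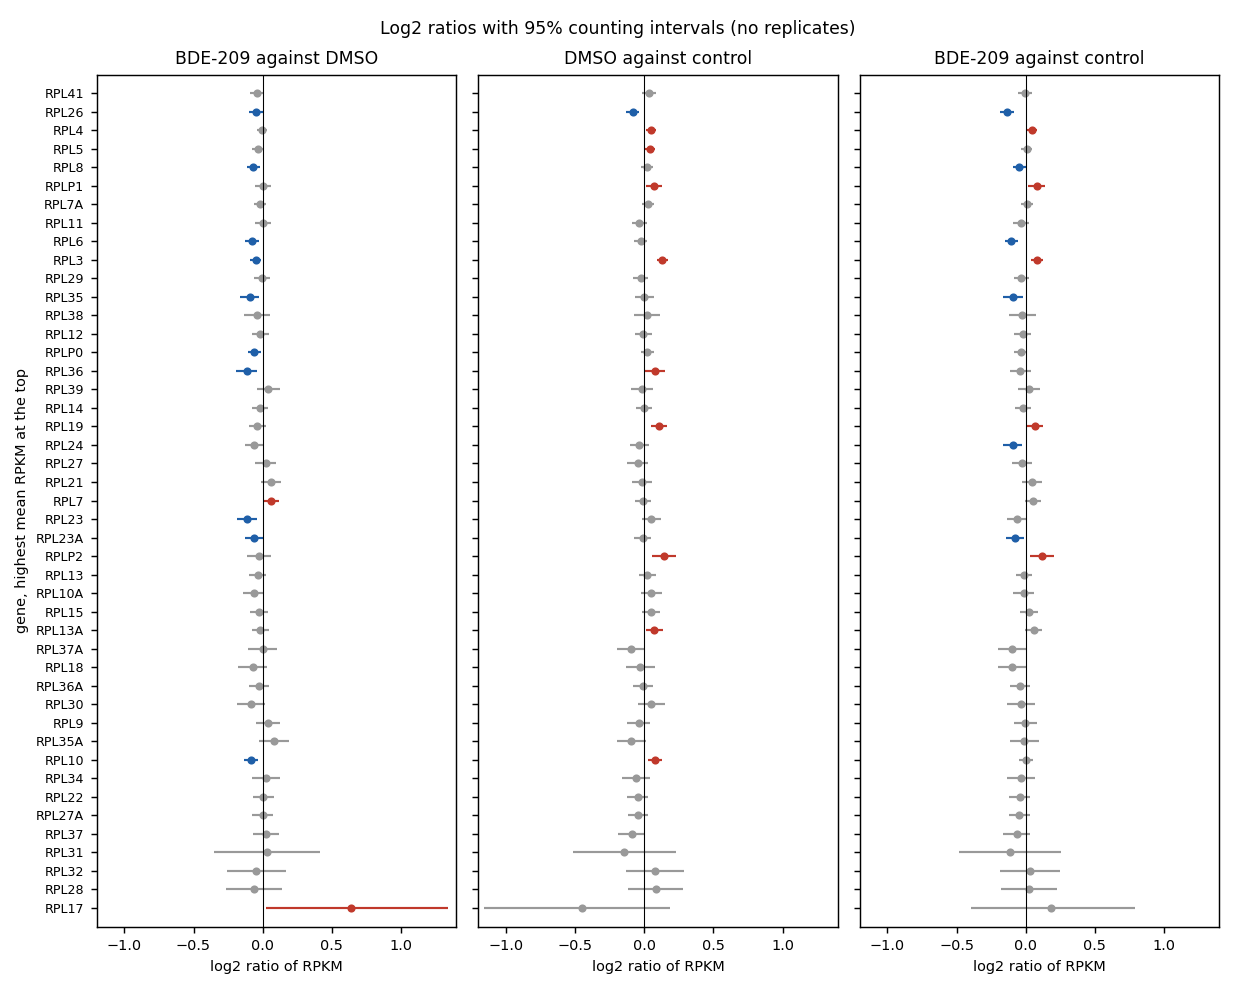
Log2 ratios of RPKM for 45 of the genes in the 3 comparisons, with 95% counting intervals; red and blue intervals lie above and below 0, grey ones include it. Of those shown, 2 intervals lie above 0 and 10 below between BDE-209 and DMSO, 9 and 1 between DMSO and control, and 5 and 6 between BDE-209 and control.

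The solvent alone is addressed by DMSO against control, where the genes lay to both sides. Of the 46 genes 22 were higher and 24 lower in DMSO, with a median log2 ratio of -0.0039, against 0.01 over all 15573 transcripts and -0.01 over the 718 other coding ones of at least 100 RPKM. Of all transcripts 51.2% were higher, and of those of at least 100 RPKM 45.2%. The sign of this median was not stable, at 0.01 with the sum of all other transcripts set equal and 0.01 with all listed transcripts taken separately. Summed reads differed by a log2 ratio of 0.02 (0.01 to 0.03). The limit of 0.32 was reached by RPL17 only, lower in DMSO at -0.45 (-1.16 to 0.18), and by 15.4% of all transcripts, 7.46% higher and 7.96% lower, and 1.38% of those of at least 100 RPKM. None of the 46 reached 2-fold, against 1.03% of all transcripts.

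Counting intervals excluded equality for 9 genes higher and 1 lower in DMSO than in control, against 11.9% and 12.2% of transcripts of at least 100 RPKM, and 4.88% and 3.87% of all. As above, the large subunit genes mostly have narrower intervals, so these shares are not like for like. With the split of uniquely mapped reads these became 17 higher and 0 lower. Higher under each of the same 3 scalings were RPL3, RPL4, RPL10, RPL13A, RPL19, RPLP1 and RPLP2. For that split and for the 3 scalings together, shares of all transcripts are again not given. RPL26 was the 1 gene below, at -0.08 (-0.134 to -0.035), and its interval included 0 with the split of uniquely mapped reads.

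RPLP2, an acidic stalk protein that recruits the elongation factors, had 801 RPKM in control, 885 RPKM in DMSO and 869 RPKM in BDE-209. Its log2 ratio was 0.14 (0.055 to 0.233) between DMSO and control and -0.03 (-0.11 to 0.06) between BDE-209 and DMSO, so that both samples with solvent lay above control. RPL3 (NM_000967, chr22:39708887-39716394 on hg19, minus strand), which reaches to the peptidyl transferase centre, had 1419, 1554 and 1501 RPKM, for 0.13 (0.09 to 0.17). RPL19 had 1185, 1275 and 1240 RPKM, for 0.11 (0.05 to 0.17). At the other end RPL31 had -0.14 (-0.52 to 0.23) on 131 and 117 reads, and RPL37A, with 797, 744 and 744 RPKM, -0.10 (-0.20 to 0.00), and both intervals include 0. RPL10, one of the last proteins to join the subunit, had 561, 593 and 561 RPKM, for 0.08 (0.03 to 0.13) against control, and was back at the control level in BDE-209.

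Against control, BDE-209 with its solvent gave 31 lower and 15 higher genes, as did BDE-209 against DMSO, with which it shares the BDE-209 sample. The median log2 ratio was -0.02, beside 0.00 over all 15573 transcripts and -0.03 over the 718 other coding ones of at least 100 RPKM. Of all transcripts 50.9% were higher, and of those of at least 100 RPKM 35.8%. It was 0.00 with the sum of other transcripts set equal. No gene reached 0.32, against 15.2% of all transcripts (7.26% higher and 7.92% lower) and 1.26% of those of at least 100 RPKM, and none 2-fold, against 0.938% of all.

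Counting intervals excluded equality for 5 genes higher and 7 lower in BDE-209 than in control, beside 9.69% and 18.1% of transcripts of at least 100 RPKM, and 4.84% and 4.39% of all. Here too the shares are not like for like, since the large subunit genes mostly have narrower intervals. All 5 of the higher genes, RPL3, RPL4, RPL19, RPLP1 and RPLP2, held under the same 3 scalings. So did 6 of the lower, among them RPL6, RPL23A, RPL24, RPL26 and RPL35. The intervals were not taken again with the sum of all other transcripts set equal, and shares of all transcripts under the 3 scalings are not given. Among the lowest ratios were those of RPL26 at -0.14 (-0.186 to -0.085) and RPL31 at -0.11 (-0.485 to 0.258). RPL17 at 0.18 (-0.40 to 0.79), RPLP2 at 0.12 (0.03 to 0.21) and RPL3 at 0.08 (0.04 to 0.12) were the highest.

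**Figure D4:**
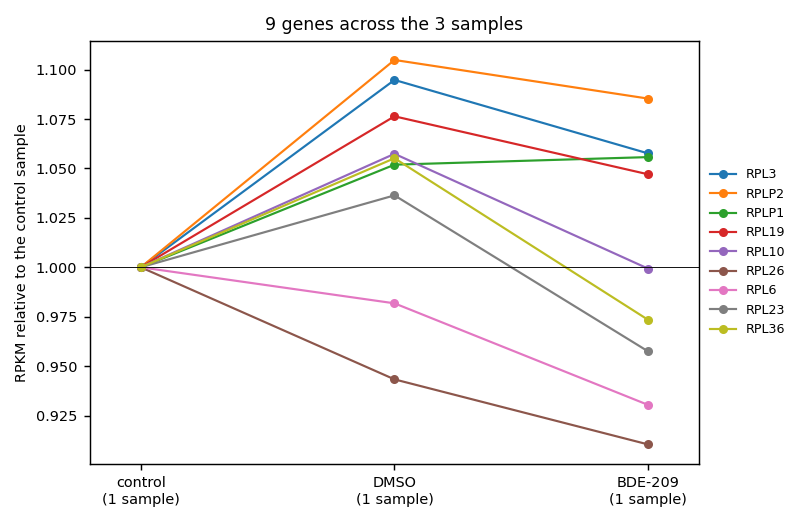
RPKM of 9 large subunit genes relative to the control sample, with control, DMSO and BDE-209 on the x axis and 1 sample per condition. RPL3, RPLP2, RPLP1 and RPL19 lie above control in both other samples, RPL26 and RPL6 below it in both, and RPL23 and RPL36 are highest in DMSO and lowest in BDE-209.

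Across the 3 samples 21 of 46 genes were lowest in BDE-209, 14 in DMSO and 11 in control, shares of 45.7%, 30.4% and 23.9% beside 43.6%, 29.4% and 26.9% of the 795 transcripts of at least 100 RPKM. Highest in BDE-209 were 5 genes (10.9% beside 21.4%), while 21 were highest in DMSO (45.7% beside 32.7%) and 20 in control (43.5% beside 45.9%). These shares are counts over genes of 3 libraries and were not tested.

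Ratios of 2 genes within a sample do not depend on how a sample was scaled. RPL3 and RPL26 were paired because their ratios between DMSO and control were at opposite ends, so the size of the difference was fixed by the choice and is given as a description. RPL3 stood at 0.606 of RPL26 in control, 0.703 in DMSO and 0.704 in BDE-209. RPLP2, paired with RPL26 for the same reason, stood at 0.342, 0.4005 and 0.408 of it.

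The next pairs were taken by their place in the ribosome, also after their values were seen. In the stalk, RPLP0 binds the ribosomal RNA and carries pairs of RPLP1 and RPLP2, next to RPL12 at its base. RPLP0 had 1323, 1345 and 1290 RPKM in control, DMSO and BDE-209, and RPL12 had 1367, 1361 and 1345 RPKM. RPLP1 stood at 1.42, 1.47 and 1.53 times RPLP0, and RPLP2 at 0.605, 0.658 and 0.674 times, so both acidic proteins lay highest against RPLP0 in BDE-209. Against control these were log2 differences of 0.11 (0.04 to 0.19) and 0.15 (0.05 to 0.25). Against DMSO they were 0.06 (-0.01 to 0.14) and 0.03 (-0.06 to 0.13), whose intervals include 0. The higher isoform of RPLP1 was used, and the ratio was not taken with the lower one, which rose more between DMSO and BDE-209. RPL5 and RPL11, which with the 5S RNA bind MDM2 when ribosome assembly is disturbed, stood at ratios of 1.16, 1.225 and 1.19, with RPL11 itself at 1675, 1634 and 1638 RPKM. In that ratio DMSO and control differed by 0.08 (0.01 to 0.15), BDE-209 and DMSO by -0.04 (-0.11 to 0.03), and BDE-209 and control by 0.04 (-0.03 to 0.11).

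The spread of log2 ratios among the 42 genes with 1 or 2 transcripts was small. Its SD was 0.05 between BDE-209 and DMSO, 0.06 between DMSO and control and 0.06 between BDE-209 and control, where counting alone gives 0.04. In the 718 other coding transcripts of at least 100 RPKM it was 0.07, 0.09 and 0.09, where counting gives 0.06. The latter have fewer reads each, so the spreads are not compared further.

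Other genes of the translation machinery, from lists chosen with earlier results of these data known, are given for comparison by counts and medians. The 32 proteins of the small subunit had median log2 ratios of -0.02 between BDE-209 and DMSO, 0.00 between DMSO and control and -0.01 between BDE-209 and control. In the first comparison 0 of their intervals lay above and 5 below equality, beside 4.91% and 10.2% of transcripts of at least 100 RPKM. Large subunit genes had 1.38 times the summed RPKM of the small subunit proteins in control and DMSO and 1.37 times in BDE-209. These sums run over 46 genes against 32, so the ratio is not one per gene. A list of 9 genes had -0.04, 0.04 and 0.01: 7 elongation factors, with PABPC1, the poly(A)-binding protein, and TPT1, both made from 5′ TOP mRNAs. Among them EEF2, which moves the ribosome along the mRNA, had 1315, 1415 and 1354 RPKM, the same order of samples as RPL3. EIF5A alone of the 9 reached the limit of 0.32 between BDE-209 and DMSO, at 0.38, on levels of 7.16, 6.17 and 8.21 RPKM. Of all transcripts 14.1% reached it. Reads and counting intervals of single genes are not given for this list or those below, and several of the levels named are low.

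Assembly factors of the large subunit (35 of 36 genes measured) had medians of 0.02, -0.05 and -0.07 in the same order of comparisons. Of the 35, 1 was past the limit of 0.32 in each of the first 2 comparisons, and 1 either way in the last. Over all transcripts 14.1%, 15.4% and 15.2% were past that limit. EIF6, which keeps the subunits apart until maturation, had 17.1, 20.1 and 13.1 RPKM in control, DMSO and BDE-209, and was past it at -0.60 against DMSO and -0.37 against control. NLE1, which acts in maturation of the large subunit, had 9.72, 14.9 and 15.3 RPKM, and was past it at 0.59 in DMSO against control and 0.63 in BDE-209 against control. RNA polymerase I and nucleolar factors (16 genes) had 0.09, -0.11 and -0.02, and UBTF alone among them passed the limit, at 0.50 between BDE-209 and DMSO on levels of 0.987, 0.772 and 1.30 RPKM. Mitochondrial large subunit proteins (48 of 49 genes), which serve the separate ribosome of mitochondria, had -0.04, -0.01 and -0.09. Of the 48, 3 were past the limit in each comparison, beside the shares of all transcripts given above. The extreme of these lists in BDE-209 against DMSO was MRPL55 at -1.04, on levels of only 0.876, 1.77 and 0.605 RPKM.

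Paralogs of large subunit proteins were measured apart from the 46 genes, and those with a partner among them lay below it. RPL36AL had 307, 290 and 285 RPKM in control, DMSO and BDE-209, beside 731, 725 and 711 RPKM for RPL36A. RPL26L1 had 74.2, 67.1 and 67.4 RPKM, RPL39L had 53.4, 55.5 and 50.04 RPKM, and RPL22L1 had 14.5, 20.3 and 16.1 RPKM. RPL7L1 had 108, 104 and 113 RPKM, RPL10L 4.19, 2.99 and 2.81 RPKM, and RPL3L, a muscle form, at most 0.270 RPKM.

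**Figure D5:**
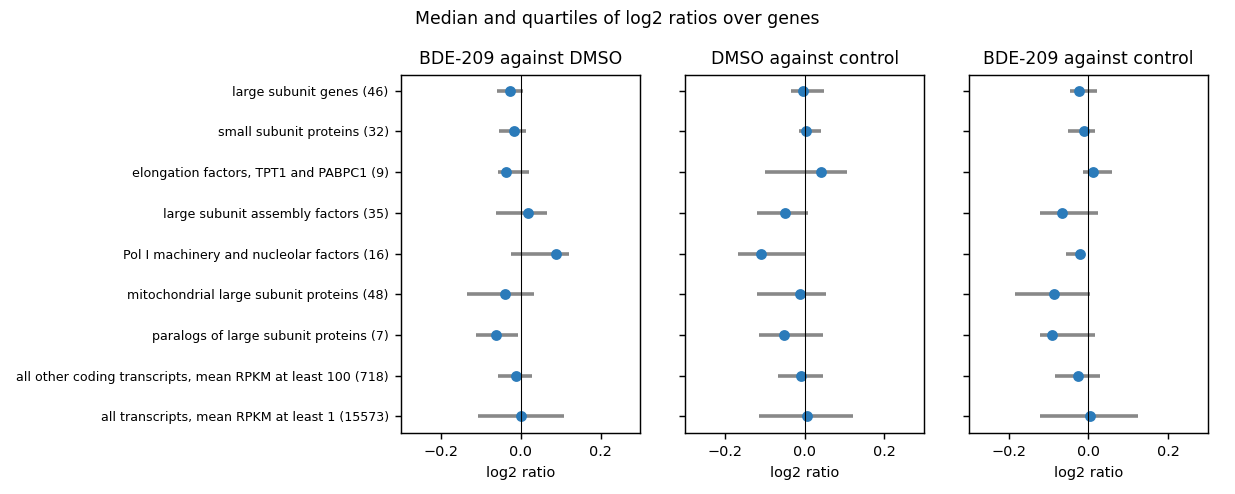
Median (points) and quartiles (bars) of log2 ratios over the genes of each list in the 3 comparisons, with the number of genes in parentheses. Large subunit genes lie at -0.03, 0.00 and -0.02, near the 718 other abundant coding transcripts at -0.01, -0.01 and -0.03.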

How the data were processed

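PolyA RNA of 3 samples was sequenced on Illumina HiSeq2000 as single-end reads of 49 bases. The authors aligned them to hg19 with SOAPaligner 2.21 (at most 2 mismatches), kept unique reads and deposited RPKM per RefSeq transcript with at least 1 read. How reads common to several isoforms were counted is not given in the sources used here.

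Absent transcripts were set to 0 RPKM, and 24434 of 25443 identifiers matched a symbol in RefSeq tables (GRCh38.p14, used for names, promoters and pseudogenes). Positions on hg19 are from GENCODE 44 lifted to GRCh37. Log2 ratios used a pseudocount of 0.5 RPKM, and backgrounds a mean of at least 1 RPKM. Reads were recovered from the steps of the RPKM values, at the smallest transcript length that fits. In simulated samples of 24885 transcripts all 3 read counts were exact for 92.26% of transcripts, and 0% had a count that was too high. Simulated lengths were drawn anew, without the floor at a coding sequence length used for the samples, so the share may differ there. Intervals of ratios are 95% Clopper-Pearson intervals, those of shares Wilson intervals; both cover counting error only. Scripts ran in Python 3.11.15 (pandas 2.3.3, statsmodels 0.14.6, numpy 2.4.6, scipy 1.17.1).

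Groups came from the sample labels. With 1 sample per condition no test was run. Genes were named by rule: the 6 highest and 4 lowest levels, the 3 highest and 3 lowest ratios of each comparison, genes with a log2 difference of at least 0.32, stalk and 5S proteins, listed isoforms and paralogs; other members were named after their values were seen. Genes and lists were chosen with earlier results of these data known. Alternatives covered pseudocount, filter, scaling, depth, isoforms and thresholds. Results of some items that the rule covers are not reported here.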

Additional observations from a re-analysis of the deposited data

How the results depend on the processing

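Of the alternatives, the scaling of the samples bore most on the small shifts. With the sum of all other transcripts set equal, the median log2 ratio of the 46 genes was -0.01749 between BDE-209 and DMSO (-0.02832 as reported), 0.01214 between DMSO and control (-0.003916 as reported) and 0.00305 between BDE-209 and control (-0.02384 as reported), so the latter pair changed sign. The cause was not tested. With all listed transcripts taken separately, DMSO against control gave 0.00941. Intervals that excluded equality numbered 23 between BDE-209 and DMSO and 17 between DMSO and control with the split of uniquely mapped reads as depth (13 and 10 as reported), and 7 and 6 at 99% confidence. Genes with a log2 difference of at least 0.32 went from 1 to 0 between BDE-209 and DMSO at a limit of 2-fold, and from 1 to 0 between DMSO and control at 1.5-fold and 2-fold. Leaving out the 4 genes with 3 or more listed transcripts, a choice made after seeing the data, also gave 0 in both. The share of all transcripts at least 0.32 apart between BDE-209 and DMSO was 21.88% with no filter on low values, 2.854% from 10 RPKM and 0.3774% from 100 RPKM. It was 3.772% and 1.384% from 10 and 100 RPKM between DMSO and control, and 22.83%, 3.945% and 1.258% between BDE-209 and control. The share of summed RPKM held by the genes in control, DMSO and BDE-209 was 10.22%, 10.45% and 10.31% with all listed transcripts, and 9.646%, 9.745% and 9.63% of coding transcripts. The other 39 values counted as the same. For medians this meant the same sign and a move within the half-width of the counting interval of the summed reads. For counts and percentages it meant a size within 1.5 times. No paired analysis was possible because each condition had 1 sample, and for the same reason no replicate could be left out. Depth limits RPL17, with 34 to 53 reads, and an undetected change cannot be read as none.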
